A study of Mus musculus with 9 samples.

Results

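Interleukins are secreted signals between immune cells, and their receptors decide which of them a CD8+ T cell can sense. The members described here are all genes with an Il symbol followed by a digit that the read tables of both tumour cartridges hold, without Il2, Il6ra and Il7r. There are 30 of them among 2124 genes in both tables: 16 receptor chains, 12 ligands and 2 secreted inhibitors (Il1rn and Il18bp). They were counted in CD8+ T cells sorted on day 14 from subcutaneous B16F10 tumours, a transplantable melanoma line, of C57BL/6 mice aged 8 weeks, all female. The cells were read one by one with a targeted immune panel and their T cell receptors were read with it. The gate kept TCR beta+ CD8+ cells and left out blood leukocytes, marked by an intravenous antibody, and cells with CD4 or with the lineage markers CD11b, B220, NK1.1 or Ter119.

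Each tumour is a single mouse. The anti-CD4 mouse received 200 µg of the CD4-depleting antibody GK1.5 on days 5 and 9, and its cells carry sample tags 5 and 6. The other cartridge pooled an untreated mouse and a mouse given 200 µg of the anti-PD-L1 antibody 10F.9G2 on the same days, and no label used here says whether tag 1 or tag 2 is the treated mouse. They go by their tags here, as the tag 1 tumour and the tag 2 tumour. Treatment, animal and, for anti-CD4, cartridge cannot be told apart. Spleen T cells of Pmel-1 mice, transgenic for a receptor against a melanocyte protein, were added after sorting (tags 7, 8 and 9) to the anti-CD4 cartridge. They are a reference of T cells from outside the tumour, not cells that must lack these genes, and the pooled cartridge holds no cells under such tags.

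Cells with a T cell receptor beta chain numbered 12304 in the anti-CD4 tumour (1474 clones), 6412 in the tag 1 tumour (1912 clones) and 11310 in the tag 2 tumour (7398 clones). Median depth was 21194, 17630 and 13932 reads per cell. A further 1311, 1667 and 2530 tagged cells had no beta chain, and 890 cells carried the Pmel-1 tags. Of these, 618 of 656 cells under tag 7, 130 of 159 under tag 8 and 40 of 75 under tag 9 had the Pmel-1 clone's beta chain, and Pmel-1 cells below means all cells under these tags. From their size the counts were taken to be reads not collapsed to molecules, and intervals cover counting error only. All 7 CD8 T cell markers listed were read, and at least 1 of them in 99.9% or more of the beta chain cells of each tumour. The numbers that index cells coincide for 397 cells of the 14881 and 22327 cells in the cartridges, and cells were always kept apart by cartridge.

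Most receptor chains here pair with a shared partner. The IL-2 and IL-15 receptors share Il2rb and the common gamma chain Il2rg, with Il2ra and Il15ra as the chains that raise affinity for their ligand. Il4ra also pairs with Il2rg, Il12rb1 and Il12rb2 form the IL-12 receptor, and Il18r1 and Il18rap form the IL-18 receptor. Il1r2 binds IL-1 without signalling, and Il1rl1 is the IL-33 receptor. In tumours, CD8+ T cells that keep the transcription factor Tcf7 are held to be less differentiated, whereas the inhibitory receptors Pdcd1 and Havcr2 mark exhausted cells.

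Among the members, 3 receptor genes had the firmest differences in summed reads between these states, as described below. The sequences upstream of these 3 genes are shown so that their start regions can be compared. Each window runs from 250 bases before to 50 bases after a RefSeq transcript start (GRCm38.p6, 300 bases, plus strand). They lie at chr2:11642542-11642841 (Il2ra), chr1:40085843-40086142 (Il1r2) and chr7:125552021-125552320 (Il4ra). Capitals mark TTCNNNGAA, the palindromic core that STAT factors bind.
Il2ra: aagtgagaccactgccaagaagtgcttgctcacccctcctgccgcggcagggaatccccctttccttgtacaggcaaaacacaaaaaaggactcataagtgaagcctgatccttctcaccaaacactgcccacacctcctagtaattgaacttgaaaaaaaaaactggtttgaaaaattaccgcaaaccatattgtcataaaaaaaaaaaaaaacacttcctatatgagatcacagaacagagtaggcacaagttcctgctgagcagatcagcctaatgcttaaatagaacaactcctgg
Il1r2: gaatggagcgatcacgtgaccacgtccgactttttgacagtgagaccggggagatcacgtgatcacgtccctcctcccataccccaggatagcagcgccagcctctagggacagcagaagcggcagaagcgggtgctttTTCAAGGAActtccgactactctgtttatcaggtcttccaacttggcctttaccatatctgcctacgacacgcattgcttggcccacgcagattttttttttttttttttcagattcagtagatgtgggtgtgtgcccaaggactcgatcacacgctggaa
Il4ra: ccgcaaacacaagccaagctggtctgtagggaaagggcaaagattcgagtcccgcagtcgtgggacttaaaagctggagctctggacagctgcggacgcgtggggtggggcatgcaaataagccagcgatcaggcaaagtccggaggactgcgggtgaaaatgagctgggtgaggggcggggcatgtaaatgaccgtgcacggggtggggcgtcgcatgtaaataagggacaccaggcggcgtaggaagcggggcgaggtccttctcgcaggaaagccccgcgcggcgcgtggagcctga
The Il1r2 window holds 1 such match and the other 2 windows hold none. On either strand, 8.30% of 32851 promoter windows of this length hold it. TGANTCA, bound by AP-1, is in 7.81% of all windows, and CTTTGA, bound by TCF/LEF factors, in 5257 of the 32851, and none of the 3 windows holds either. These searches describe letters in short windows and say nothing of the factors. Of the 12 members read in these cells (below), 9 had a window in the table.

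Reading was concentrated in a few receptor chains. A member is called read in a tumour where at least 1% of beta chain cells have a read after every cell is thinned to 4000 reads, a depth all cells reach. By that rule 12 of 30 members were read in at least 1 tumour, of which 11 are receptor chains read in all 3 tumours and 1 is the ligand Il10. Just outside the rule were Il33, at most 0.671% of cells, and Il10ra, at most 0.626%. The other 5 receptor chains, the other ligands and both inhibitors stayed under 1% in each tumour. By ligand family, the highest share in any tumour was 0.671% for Il33 in the IL-1 family, 0.536% for Il15 in the common gamma chain family, 0.179% for Il13 among type 2 cytokines, 0.172% for Il17f in the IL-17 family, 0.0796% for Il12a in the IL-12 family and 0.0531% for Il6. Of the receptor families without a read chain, IL-17 had Il17ra at 0.0177% at most.

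**Figure D1:**
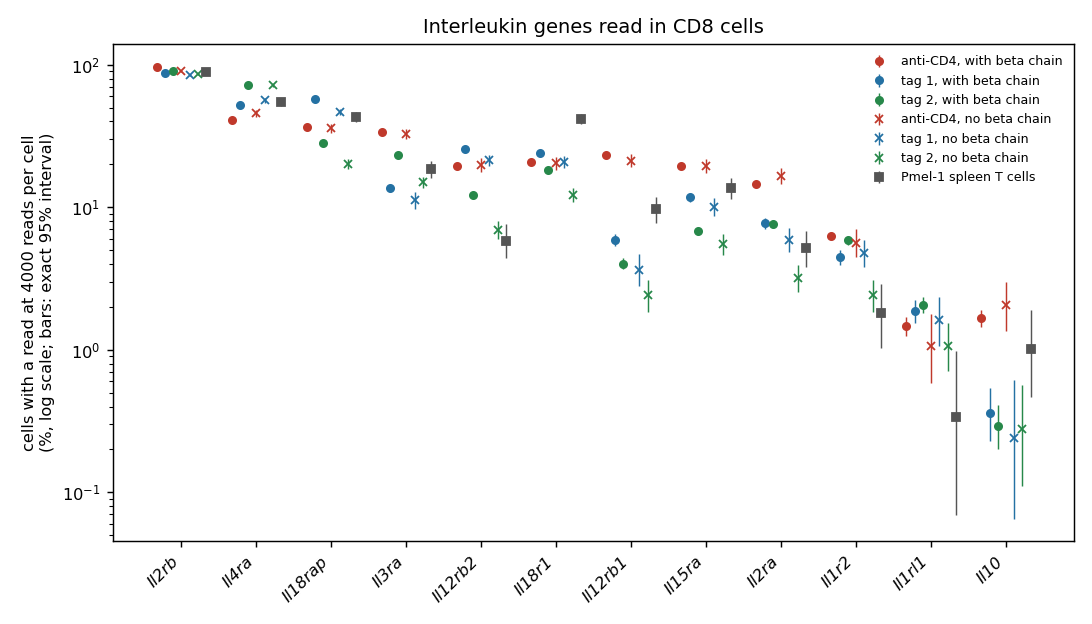
Share of cells with at least 1 read at 4000 reads per cell (y axis, percent, log scale) for the 12 members read in at least 1 tumour; circles are beta chain cells, crosses cells without a beta chain, squares Pmel-1 spleen cells, and bars exact 95% intervals for counting error. Il2rb lies above 84% in every group, and Il10 reaches 1% only in the anti-CD4 tumour and the Pmel-1 cells.

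Il2rb, the signalling chain of the IL-2 and IL-15 receptors, was read in 96.8% of beta chain cells of the anti-CD4 tumour, 87.3% of the tag 1 tumour and 90.9% of the tag 2 tumour, beside 89.4% of Pmel-1 spleen cells. It was the member read in most cells in every group. Il2ra, the high-affinity chain also called CD25, was read in 14.6%, 7.70% and 7.65% of cells, beside 5.17% of the Pmel-1 cells. Its share in the anti-CD4 tumour (95% interval 13.9 to 15.2) lay above those of the other two tumours (7.06 to 8.38 and 7.17 to 8.15). Il15ra, which presents IL-15, was read in 19.6%, 11.7% and 6.80% of cells, beside 13.6%. Il4ra, the IL-4 receptor chain, ran the other way across tumours, with 41.1%, 52.3% and 72.3% of cells, beside 54.8%.

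Both IL-12 receptor chains were read, with different orders across tumours. Il12rb1 was read in 23.3% of anti-CD4 tumour cells, against 5.91% and 4.03% of tag 1 and tag 2 cells and 9.66% of Pmel-1 cells. Il12rb2 was highest in the tag 1 tumour, with 25.8% of cells, against 19.3% in the anti-CD4 tumour, 12.2% in the tag 2 tumour and 5.84% of the Pmel-1 cells. The IL-18 receptor chains were highest in different groups. Il18rap was read in 36.4%, 57.2% and 28.1% of anti-CD4, tag 1 and tag 2 cells, and Il18r1 in 20.8%, 24.0% and 18.4%. Pmel-1 cells had Il18r1 in 41.8% of cells, above all 3 tumours, and Il18rap in 43.0%.

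Il3ra, the IL-3 receptor alpha chain, was read in 33.7%, 13.6% and 23.3% of cells of the anti-CD4, tag 1 and tag 2 tumours. Il1r2, the decoy receptor, was read in 6.28%, 4.44% and 5.87%, and Il1rl1 in 1.46%, 1.87% and 2.06%. In the Pmel-1 cells these receptors were read in 18.4%, 1.80% and 0.337% of cells, so the tumour shares of Il1r2 and Il1rl1 lay above the spleen reference. Il10, which dampens immune responses, was read in 1.67% of anti-CD4 tumour cells (1.45 to 1.91) and in 9 of 890 Pmel-1 cells (1.01%, 0.463 to 1.91), so these shares overlap in their intervals. It was read in 0.359% and 0.292% of tag 1 and tag 2 cells. With 1 mouse per tumour, no difference between tumours can be tested. Of the 12 members, Il18rap differed most between tags 5 and 6, which label the same mouse, with 35.5% and 37.3% of cells.

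Some members had very few reads in any cell. Il2rg, the common gamma chain without which IL-2 and IL-15 receptors do not signal, had a read in 0.0325%, 0.0468% and 0.124% of cells of the anti-CD4, tag 1 and tag 2 tumours. Over all 71 beta chain cells with an Il2rg read at full depth, the median was 1 read per such cell, as for Il21r, Il17ra and Il10ra. The 12 members read had medians of 25 to 359 reads per cell with a read. How well the panel captures each gene was not measured, so a low share is not read here as low expression, and an order of genes by share is an order of reads in this panel only.

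The state comparisons asked which members differ between less differentiated and exhausted cells of the same tumour. Cells with a read of Tcf7 and none of Pdcd1 or Havcr2 at 4000 reads (Tcf7-only cells) numbered 885, 2883 and 6203 in the anti-CD4 tumour and the tag 1 and tag 2 tumours. Cells with Pdcd1 and Havcr2 but no Tcf7 (Pdcd1-Havcr2 cells) numbered 5277, 261 and 938, and cells with Tcf7 and Pdcd1 but no Havcr2 (Tcf7-Pdcd1 cells) 944, 850 and 1584. Raw reads were summed per mouse and state and tested within mice (edgeR quasi-likelihood, Benjamini-Hochberg adjusted p under 0.05 over all genes tested). Cells of no such class (5198, 2418 and 2585) were not compared. Median depth was 12386, 15913 and 11035 reads per cell in Tcf7-only cells and 25727, 33622 and 43004 in Pdcd1-Havcr2 cells. Levels below are in CPM, a gene's reads scaled to the same total of reads in each sum. Between Pdcd1-Havcr2 and Tcf7-only cells, 12.0% of 973 genes were called, and 5 of 28 members tested. Of these, 3 were higher (Il2ra, Il1r2 and Il3ra), beside 5.65% of all genes, and 2 lower (Il4ra and Il17f), beside 6.37%. The median log2 difference was 0.37 over the members tested and 0.14 over all genes tested.

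Il2ra was at 403, 632 and 601 CPM in Pdcd1-Havcr2 cells of the anti-CD4, tag 1 and tag 2 tumours and at 105, 137 and 38.0 CPM in Tcf7-only cells. The lowest level in Pdcd1-Havcr2 cells lay well above the highest in Tcf7-only cells. The log2 difference was 2.88 (SE 0.47, edgeR adjusted p = 0.0114, 3 mice). More cells carried the gene as well: 18.1%, 23.0% and 30.3% of Pdcd1-Havcr2 cells had an Il2ra read, against 2.94%, 4.41% and 1.55% of Tcf7-only cells. Without the anti-CD4 mouse or without the tag 2 mouse the edgeR adjusted p was 0.0543 and 0.0564. Tested on numbers of cells with a read, Il2ra was also called higher, but there the median log2 difference over all 376 genes was 0.60.

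Il1r2 was at 486, 1335 and 1119 CPM in Pdcd1-Havcr2 cells of the 3 tumours and at 234, 184 and 95.9 CPM in Tcf7-only cells. Again the states did not overlap, but the anti-CD4 tumour had the smallest gap. The log2 difference was 2.62 (SE 0.50, edgeR adjusted p = 0.0162). Il1r2 was read in 9.53%, 18.8% and 22.6% of Pdcd1-Havcr2 cells and in 1.47%, 1.63% and 1.05% of Tcf7-only cells. Its edgeR adjusted p was 0.145 without the tag 1 mouse, 0.130 without the tag 2 mouse, 0.0880 with states set at full depth and 0.151 with 1 cell drawn per clone and state, where the log2 difference was 1.33.

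Il4ra fell. It was at 1598, 2890 and 2829 CPM in Pdcd1-Havcr2 cells against 9462, 5435 and 11617 CPM in Tcf7-only cells of the anti-CD4, tag 1 and tag 2 tumours. Every Tcf7-only sum lay above every Pdcd1-Havcr2 sum, and the log2 difference was -1.62 (SE 0.24, edgeR adjusted p = 0.00853). The share of cells with a read moved less: 40.9%, 59.0% and 68.7% of Pdcd1-Havcr2 cells against 69.9%, 57.1% and 77.5% of Tcf7-only cells, so in the tag 1 tumour the shares were nearly equal. Tested on numbers of cells with a read, the log2 difference was -0.31 and was not called (edgeR adjusted p = 0.141). In that test the median over all 376 genes was 0.60, and 196 of 242 called genes were higher, so Il4ra lay below most genes. On summed reads, the edgeR adjusted p was 0.0574 without the anti-CD4 mouse and 0.103 without the tag 2 mouse. The sum of the B cell list moved with Il4ra, though not each of its genes. Its 5 held genes of 6 summed to 3361, 2290 and 3283 CPM in Tcf7-only cells and to 624, 1317 and 731 CPM in Pdcd1-Havcr2 cells. Most of this in Tcf7-only cells was Ighm (3130, 1462 and 3046 CPM), while Cd79a, a B cell receptor component, was at 0 to 4.98 CPM in these sums. Igkc, also on the list, went the other way in each mouse. It was at 45.1, 758 and 98.8 CPM in Tcf7-only cells and at 90.5, 924 and 169 CPM in Pdcd1-Havcr2 cells. Without cells with reads of at least 2 genes from the lists of other cell types, B cells included, the Il4ra log2 difference was -2.04 (edgeR adjusted p = 0.00350). Cells whose only such gene was Ighm stayed in, so this setting does not set Ighm aside. It kept 808 of 885 Tcf7-only cells of the anti-CD4 tumour, where 41.2% had an Ighm read before it. The part of Ighm cells in the Il4ra difference was not tested.

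The other 2 calls were weaker. Il3ra was at 2159, 1275 and 2060 CPM in Pdcd1-Havcr2 cells and 1947, 662 and 1104 CPM in Tcf7-only cells, so the states overlapped across mice although each mouse was higher in Pdcd1-Havcr2 cells. Its log2 difference of 0.89 (SE 0.22, edgeR adjusted p = 0.0451) lost the call in 12 of 15 other settings, including each of the 3 fits with 1 mouse left out. Il17f, a ligand of the IL-17 family, was at 0.181, 0.211 and 0.0930 CPM in Pdcd1-Havcr2 cells and at 25.4, 9.19 and 2.31 CPM in Tcf7-only cells (log2 difference -5.41, SE 1.10, edgeR adjusted p = 0.0212). The edgeR adjusted p was 0.0740 without the tag 1 mouse, 0.127 without the tag 2 mouse and 0.0726 with no replicate block. Only 16, 11 and 7 cells of the whole tumours had an Il17f read at 4000 reads, and up to 50.9% of the reads came from a single cell. Trdc, a gamma delta receptor gene and the 1 held of 4 listed markers of natural killer and gamma delta cells, moved with it: it was at 164, 41.1 and 143 CPM in Tcf7-only cells and at 1.99, 0 and 0 CPM in Pdcd1-Havcr2 cells. Its part in the Il17f difference was not tested.

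**Figure D2:**
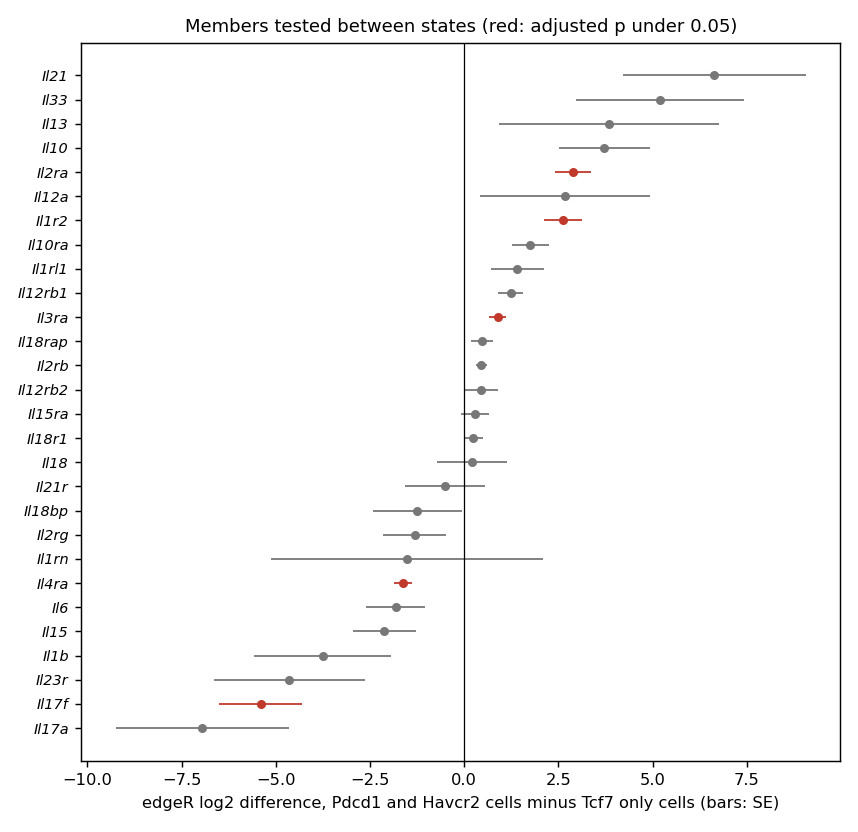
Log2 difference between Pdcd1-Havcr2 and Tcf7-only cells (x axis, edgeR estimate with SE) for the 28 members tested, in order of size; red points have an adjusted p under 0.05. Members near 0 with short bars are receptor chains read in many cells, and the estimates beyond 3 in either direction belong to genes with at most 89.2 CPM in any of the 6 sums.

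Members read in most cells did not all differ. Il2rb was at 25476, 18106 and 25591 CPM in Pdcd1-Havcr2 cells and 21673, 14740 and 23492 CPM in Tcf7-only cells of the 3 tumours, higher in each mouse by a small amount (log2 difference 0.45, SE 0.14, edgeR adjusted p = 0.0896). Il12rb1 was at 992, 323 and 330 CPM against 575, 228 and 108 CPM, also higher in each mouse (1.23, SE 0.33, edgeR adjusted p = 0.0580), and was called in 6 of 15 other settings. Il12rb2, Il15ra, Il18r1 and Il18rap had log2 differences of 0.24 to 0.47, each smaller than 2 SE, and mice that went in opposite directions. Il18rap shows the spread: it was at 3140 against 1515 CPM in the tag 2 tumour, but at 2044 against 2291 CPM and 4872 against 5393 CPM in the anti-CD4 and tag 1 tumours. Il10 was at 89.2, 56.3 and 22.8 CPM against 52.5, 0.927 and 0.806 CPM (log2 difference 3.72, edgeR adjusted p = 0.102) and was called in 9 of 15 other settings.

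The cells between these states, with Tcf7 and Pdcd1, stood nearer the Pdcd1-Havcr2 cells for Il1r2 in CPM, but not in shares of cells. Il1r2 was at 517, 1377 and 1170 CPM in Tcf7-Pdcd1 cells, and the log2 difference from there to Pdcd1-Havcr2 cells was -0.09, -0.04 and -0.06 in the 3 mice. By cells with an Il1r2 read the middle state was intermediate in each mouse, with 41 of 944, 79 of 850 and 200 of 1584 cells. Pdcd1-Havcr2 cells had 503 of 5277, 49 of 261 and 212 of 938, and Tcf7-only cells 13 of 885, 47 of 2883 and 65 of 6203. Levels below are again in CPM. Il2ra was intermediate in each mouse, at 273, 374 and 296 CPM, and so was Il4ra, at 2946, 3955 and 4171 CPM. Il1rl1 was highest in this middle state in each mouse, at 57.6, 260 and 361 CPM against 12.4, 57.4 and 29.8 CPM in Tcf7-only and 40.6, 35.8 and 129 CPM in Pdcd1-Havcr2 cells. No member was called by edgeR between Tcf7-Pdcd1 and Tcf7-only cells (0 of 28, beside 0.103% of 973 genes). There 7 members had an unadjusted edgeR p under 0.05, beside 140 of all genes tested, and DESeq2 called 6, beside 47 of all genes. None was called between Pdcd1-Havcr2 and Tcf7-Pdcd1 cells (0 of 28, beside 2.67% of 973 genes called and 0.617% called higher). Here 4 had an unadjusted edgeR p under 0.05, beside 151 of all genes tested, and DESeq2 called 4, beside 95 of all genes.

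**Figure D3:**
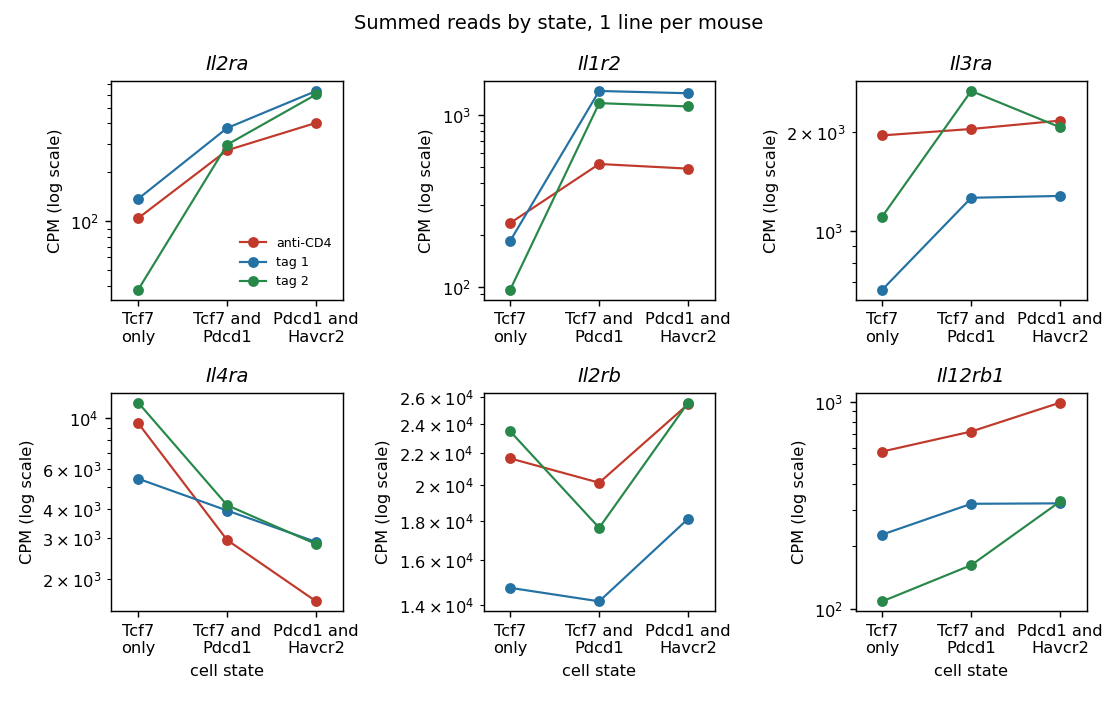
Level of 6 members in the summed reads of each state (y axes, CPM, log scale, different ranges), with 1 line per mouse. Il2ra and Il1r2 climb and Il4ra drops from Tcf7-only to Pdcd1-Havcr2 cells in each mouse, while the lines of Il3ra and Il12rb1 lie apart by mouse as much as by state.

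Il1r2 was read more often in cells that also had an Il2ra read. In Pdcd1-Havcr2 cells, Il1r2 was read in 18.3% of cells with an Il2ra read against 7.59% of those without in the anti-CD4 tumour. The values were 45.0% against 10.9% in the tag 1 tumour and 32.0% against 18.5% in the tag 2 tumour. The share was higher beside an Il2ra read in all 9 groups of state and mouse. Both genes were thinned to the same depth, although before thinning cells with an Il2ra read had more reads (median 31026 against 24689 in the anti-CD4 Pdcd1-Havcr2 cells). The subunits of the IL-18 receptor showed the same direction over beta chain cells of all states together. Il18rap was read in 48.9%, 68.0% and 47.0% of cells with Il18r1 against 33.2%, 53.7% and 23.8% of cells without in the anti-CD4 tumour and the tag 1 and tag 2 tumours. Within states the gap was narrowest in Tcf7-only cells of the anti-CD4 tumour, at 27.2% against 26.4%. Other pairs of members looked at, such as Il10 with Il12rb2, did not all share this direction. These are descriptions over cells that share a library and a clone, without a test.

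**Figure D4:**
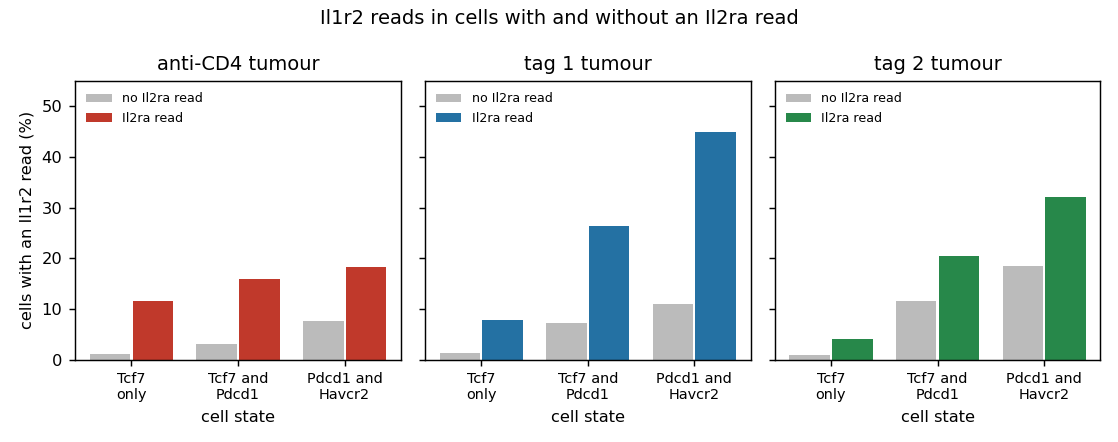
Share of cells with an Il1r2 read (y axis, percent) among cells with and without an Il2ra read, by state and tumour at 4000 reads per cell. In each of the 9 pairs of bars the cells with an Il2ra read are higher, with 45.0% against 10.9% as the widest gap, in Pdcd1-Havcr2 cells of the tag 1 tumour.

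Clone size was the second axis. Cells of a mouse were taken as 1 clone where their beta chains had the same V and J genes and the same CDR3 at the nucleotide level, and cells were summed for clones of 1 cell, 2 to 9 cells and 10 or more cells. Size and state are linked: Tcf7-only cells made up 55.1%, 68.0% and 77.4% of single-cell clones and 1.42%, 36.1% and 10.9% of the cells in clones of 10 or more in the anti-CD4 tumour and the tag 1 and tag 2 tumours. Between clones of 10 or more cells and single-cell clones, 8.62% of 800 genes were called and 2 of 24 members tested, 1 lower (Il4ra), beside 3.88% of genes, and 1 higher (Il10), beside 4.75%. Of all genes called, 38 were higher and 31 lower; with DESeq2 size factors, which move the median of all genes from 0.14 to -0.01, 21 of 62 were higher. The median over the members tested was 0.66.

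Il4ra fell with clone size in every mouse. It was at 8632, 1991 and 1641 CPM in clones of 1, 2 to 9 and 10 or more cells of the anti-CD4 tumour, at 8521, 3399 and 2715 CPM in the tag 1 tumour and at 12202, 4426 and 3117 CPM in the tag 2 tumour. The size classes at the ends did not overlap, and most of the change lay between the first and the middle class. The log2 difference was -1.85 (SE 0.18, edgeR adjusted p = 0.00679). Within Tcf7-only cells alone, a comparison chosen after seeing the data, the log2 difference was -1.88 (edgeR adjusted p = 0.0314). Within Pdcd1-Havcr2 cells, where single-cell clones had only 32, 5 and 13 cells, it was -0.64 (edgeR adjusted p = 0.623). The call was lost without each mouse in turn (edgeR adjusted p 0.0579 to 0.0988) and without the replicate block that pairs the classes of a mouse (0.0503). The sum of the B cell list was again lower, at 754, 1923 and 1992 CPM in clones of 10 or more cells against 4152, 2550 and 3304 CPM in single-cell clones. Igkc of this list was higher in clones of 10 or more cells in the tag 1 (1032 against 320 CPM) and tag 2 tumours (408 against 49.8 CPM). In the anti-CD4 tumour Igkc was at 119 against 150 CPM. Without cells with at least 2 genes of other cell types the Il4ra difference was -1.95 (edgeR adjusted p = 0.0117). Again this kept cells whose only such gene was Ighm.

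Il10 was at 94.2, 14.5 and 12.1 CPM in clones of 10 or more cells and 35.7, 1.13 and 3.02 CPM in single-cell clones of the anti-CD4, tag 1 and tag 2 tumours. It was higher in each mouse (log2 difference 2.44, SE 0.52, edgeR adjusted p = 0.0410), but the groups overlapped across mice and the call was lost in 11 of 15 other settings, including without each mouse in turn. The middle class was the highest, at 174, 22.5 and 28.5 CPM. Il18rap came closest to a call among the rest (0.68, SE 0.16, edgeR adjusted p = 0.0538). It was at 2058 against 2123 CPM in the anti-CD4 tumour, at 6149 against 4267 CPM in the tag 1 tumour and at 3124 against 1469 CPM in the tag 2 tumour.

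In CPM, though mostly not in shares of cells, some members went another way with clone size in the anti-CD4 tumour. Il2ra was at 371 CPM in its clones of 10 or more cells and 563 CPM in its single-cell clones, whereas tag 1 and tag 2 went from 144 to 320 and from 58.3 to 461 CPM. The share of its cells with an Il2ra read was higher in large clones all the same, at 15.1% against 8.30%, as in the tag 1 (8.65% against 3.97%) and tag 2 tumours (20.1% against 1.69%). Il1rl1 was at 34.3 against 129 CPM there, and at 121 against 84.2 and 245 against 13.3 CPM in the tag 1 and tag 2 tumours. Its shares went the same way as its CPM, at 1.30% against 2.01% of anti-CD4 tumour cells, with intervals that overlap. These opposite directions were not tested. Higher shares in large clones were common to many genes: on numbers of cells with a read, the median log2 difference was 0.38 over 434 genes tested. Foxp3, the regulatory T cell factor, was read in 1.495% of anti-CD4 tumour cells, although the gate left out CD4+ cells, and in 1.69% of Pmel-1 cells. In the 184 Foxp3 cells of the tumour Il2ra was read in 66.3%, Il10 in 16.8% and Il1rl1 in 12.5%, against 13.8%, 1.44% and 1.30% of the other cells. Summed Foxp3 and Cd4 reads were at 1044 CPM in single-cell clones and 163 CPM in clones of 10 or more cells of that tumour. Their part in the clone size pattern was not tested.

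**Figure D5:**
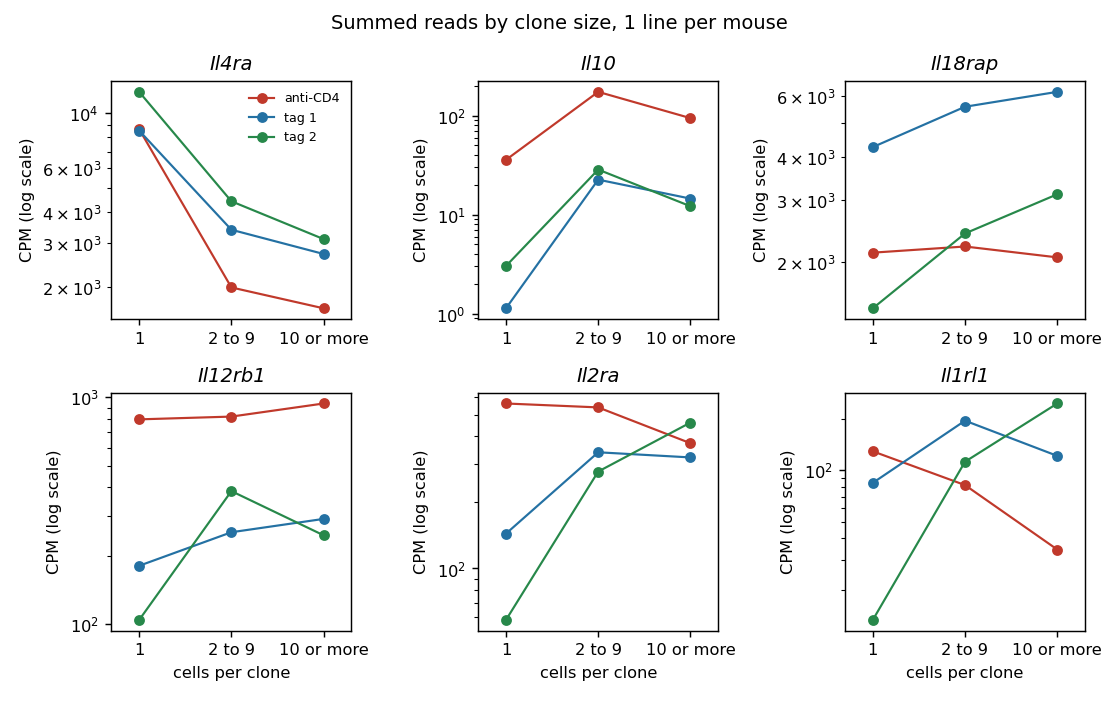
Level of 6 members in the summed reads of each clone size class (y axes, CPM, log scale, different ranges), with 1 line per mouse. Il4ra drops in all 3 mice, Il10 peaks in clones of 2 to 9 cells, and the CPM of Il2ra and Il1rl1 goes down in the anti-CD4 mouse and up from the first to the last class in the others, although the share of cells with an Il2ra read is higher in the last class in all 3. Shares tended to be higher in the last class over all genes tested on numbers of cells with a read (median log2 difference 0.38).

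Single large clones differed widely in the same genes. Among the 34 clones of at least 50 cells in the anti-CD4 tumour, the share of cells with an Il1r2 read ran from 0% to 36.0% (median 6.08%), and that of Il2ra from 6.17% to 32.6% (median 15.3%). Among 9 such clones of the tag 1 tumour Il1r2 ran from 0% to 46.2% and Il2ra from 0% to 49.0%, and among 18 of the tag 2 tumour from 0% to 35.3% and from 1.35% to 35.5%. Il2rb stayed at 82.0% or more in all of these clones. Il4ra ran from 22.8% to 58.8%, 22.8% to 73.1% and 27.0% to 77.4% in the 3 tumours.

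Cells without a beta chain may be other cell types or T cells whose receptor was not read. No member was called against beta chain cells, and 10 of 29 members tested had a positive log2 difference. The median log2 difference was -0.23 over the members tested, near the -0.24 over all genes tested. Il1b, a proinflammatory ligand, was at 449, 28.7 and 69.4 CPM in cells without a beta chain of the anti-CD4, tag 1 and tag 2 tumours and at 20.4, 1.37 and 2.39 CPM in beta chain cells. The groups did not overlap, and the log2 difference was 4.46 (SE 0.30), but no gene passed the edgeR threshold (adjusted p = 0.0788 for Il1b, 0 of 29 members, beside 0.0% of 1137 genes). At an unadjusted edgeR p under 0.05 there were 4 members, beside 122 of the 1137 genes, and DESeq2 called 5, beside 82 of all genes. The Il1b difference was -0.50 without cells with at least 2 genes of other cell types and 0.77 without cells with a myeloid read. Il1rn, which blocks the IL-1 receptor, was at 1288, 596 and 53.8 CPM against 97.7, 5.33 and 34.3 CPM (3.57, SE 1.48, edgeR adjusted p = 0.502). Il1b and Il1rn were chosen here after their values were seen.

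Myeloid markers moved with these genes, although the gate left out CD11b+ cells. In cells without a beta chain of the anti-CD4 tumour, 43 of 45 cells with an Il1b read, 54 of 57 with an Il1rn read and 19 of 19 with an Il1a read also had a read of Lyz2, C1qa, C1qb, Adgre1 or Cd14, against 9.08%, 8.29% and 10.8% of the other cells. Even among beta chain cells of that tumour, 16 of 32 Il1b cells and 32 of 68 Il1rn cells had such a read, against 6.05% and 5.94% of the others. Of the 13 myeloid markers listed, 9 were held, and their summed level was 33979, 8640 and 4569 CPM in cells without a beta chain and 1975, 141 and 492 CPM in beta chain cells. For Il2ra the shares lay closer: its cells in the anti-CD4 tumour had a myeloid read in 6.42% of cases, against 6.13% of cells without an Il2ra read. In the tag 1 tumour the values were 1.42% (7 of 494 cells) against 0.710%, and in the tag 2 tumour 0.925% against 0.948%. Summed myeloid markers were also at 2193, 190 and 107 CPM in Tcf7-only cells and at 360, 176 and 58.9 CPM in Pdcd1-Havcr2 cells. The share of cells with a read of any of the held markers went the other way in each mouse. It was 4.41%, 3.26% and 2.84% of Tcf7-only cells and 8.57%, 6.90% and 2.99% of Pdcd1-Havcr2 cells. Without cells that have a myeloid read, Il2ra, Il1r2, Il4ra and Il17f kept their calls between Pdcd1-Havcr2 and Tcf7-only cells, Il3ra lost it and Il10 gained it.

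Of 40 listed signalling partners and related cytokine genes, 18 were in both tables. Between Pdcd1-Havcr2 and Tcf7-only cells 1 of 18 was higher and 3 were lower, beside 5.65% and 6.37% of all genes. Stat3, which carries signals of IL-6, IL-10 and IL-21, was at 1484, 5768 and 6148 CPM in Pdcd1-Havcr2 cells against 1189, 2958 and 4748 CPM (log2 difference 0.79, edgeR adjusted p = 0.0139). Il7r, the IL-7 receptor chain, was at 253, 757 and 777 CPM against 7476, 8363 and 15431 CPM (-3.97, edgeR adjusted p = 0.000584). Il6ra, with -5.52, and the survival gene Bcl2, with -2.44, fell with it (edgeR adjusted p = 0.00160 and 0.0118). With clone size 3 of 17 tested were lower, beside 3.88% of all genes: Il6ra, Il7r and the cytokine signalling inhibitor Socs1 (-4.54, -2.74 and -1.55, edgeR adjusted p = 0.00409, 0.00908 and 0.0339). Between Pdcd1-Havcr2 and Tcf7-Pdcd1 cells 2 of 18 were lower, beside 2.06% of all genes: Il7r (-2.67, edgeR adjusted p = 0.00532) and Il6ra (-3.56, 0.0128). Between Tcf7-Pdcd1 and Tcf7-only cells 0 of 18 were called by edgeR, beside 0.103% of all genes. There 6 had an unadjusted edgeR p under 0.05, beside 140 of all 973 genes tested, and DESeq2 called 3, beside 47 of all genes.

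Several members lie next to each other in the genome. Il1r2 (chromosome 1, 40084692 to 40125230, GRCm38), Il1rl1 (40404864 to 40465418), Il18r1 (40465552 to 40500854) and Il18rap (40515362 to 40551707) stand in a cluster on chromosome 1 with Il1r1 and Il1rl2, which are no members. They did not move as a block: between Pdcd1-Havcr2 and Tcf7-only cells the log2 differences were 2.62 for Il1r2, 1.41 for Il1rl1, 0.24 for Il18r1 and 0.47 for Il18rap, and only Il1r2 was called.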

How the data were processed

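Per the labels' protocols, tumour CD8+ cells went through BD Rhapsody, which isolates cells in microwells, in 2 cartridges. Bowtie2 2.4.2, cutadapt 3.2 and 3.4, R 3.6.3 and GRCm38 were used, per the submitters' processing notes; their order is not given. The deposited matrices hold whole-number counts of reads per panel gene and cell, not collapsed molecules. The alpha and beta chain tables, as deposited, hold estimated counts per cell and the fraction of a cell's chain reads, per the file headers; they were used only to set clones. The 2124 genes in both matrices hold 100.0% and 99.98% of reads. Untagged cells and cells marked as doublets in the deposited tables (774) and 10 Pmel-1 clone cells under tags 5 and 6 were left out, and no doublet caller was run.

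Shares were computed after thinning each cell to 4000 reads (seed 11), with exact Clopper-Pearson 95% intervals. Reads were summed per mouse and class, and sums of fewer than 5 cells were left out. Tests used edgeR 4.0.16 in R 4.3.3, blocked by mouse, after TMM scaling and filterByExpr at a minimum of 10 counts, and p-values were adjusted by Benjamini-Hochberg with a threshold of 0.05. The block pairs classes that come from the same animal. DESeq2 1.42.0 was an alternative. Tests were tried on simulated data. Per-mouse log2 differences add 1 CPM. The rule for named genes takes each member read in at least 1% of beta chain cells of a tumour, each member called in any of the 5 comparisons and, for a family with neither, up to 2 members of highest share. Plots and summaries used Python 3.11.15, numpy 2.4.6, pandas 2.3.3, scipy 1.17.1 and matplotlib 3.10.9.

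The members, lists and tests were chosen with earlier results of these data known. Removing cells with a myeloid read, drawing 1 cell per clone and class, and the clone size comparison within Tcf7-only cells were added after seeing the data.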

Additional observations from a re-analysis of the deposited data

Results flagged for a closer look

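In 8 cases the anti-CD4 mouse moved one way in a comparison and both other mice the opposite way, whatever the size; with 1 mouse per tumour none of these differences was tested. On the log2 scale of CPM plus 1, the anti-CD4 mouse had a difference of -1.88 for Il1rl1, -0.60 for Il2ra, -0.44 for Il1r2, -0.22 for Il18r1 and -0.045 for Il18rap between clones of 10 or more cells and single-cell clones. Shares of cells with a read at 4000 reads gave the opposite sign for 4 of these in that mouse: in clones of 10 or more against single-cell clones they were 15.1% against 8.30% for Il2ra, 6.37% against 3.65% for Il1r2, 20.8% against 18.5% for Il18r1 and 37.9% against 26.5% for Il18rap, higher in large clones as in both other mice. Shares rose with clone size for most genes called on numbers of cells with a read, where 146 of 198 were higher. The median log2 difference there was 0.38 over all 434 genes tested. Il10 differed by -0.64 between Tcf7-Pdcd1 and Tcf7-only cells of the anti-CD4 mouse. Between cells without and with a beta chain its differences were 0.38 for Il2ra and 0.17 for Il1rl1, where both other mice were negative.

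Some Il genes are in the table of only 1 cartridge and are no members. Il22 had a read in 8 of 12304 beta chain cells of the anti-CD4 tumour (0.0650%) and in 0 of 890 Pmel-1 cells, which allows a share of up to 0.337%. Il16 had a read in 6 of 6412 tag 1 cells (0.0936%) and 8 of 11310 tag 2 cells (0.0707%), with 9 reads in each of these tumours. Il27ra had a read in 4 of 11310 tag 2 cells (0.0354%). The pooled cartridge holds no Pmel-1 cells to set beside these shares.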

How the results depend on the processing

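With 3 mice, 1 per tumour, the spread between mice holds the treatments, and leaving 1 out leaves 2. Reads are not molecules, so depth limits the members with 1 or 2 reads per cell. The number of members read stayed within 10 to 15 in the anti-CD4, 10 to 13 in the tag 1 and 10 to 12 in the tag 2 tumour under all settings tried. DESeq2 size factors moved the median log2 difference of all genes between Pdcd1-Havcr2 and Tcf7-only cells from 0.14 to -0.06, where Il2ra, Il1r2, Il4ra and Il17f were still called and Il3ra was not. The cause of the changes below was not tested.

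Between Pdcd1-Havcr2 and Tcf7-only cells, 5 members were called, beside 117 of the 973 genes tested. For other settings, the genes called of all genes tested stand in brackets. It was 13 with DESeq2 (209 of 973), 8 on thinned reads (182 of 449) and 10 on numbers of cells with a read (242 of 376). With no replicate block, the pairing of classes within a mouse, it was 3 (66 of 973). With 1 mouse left out it was 3 without anti-CD4 (63 of 1036), 2 without tag 1 (69 of 1028) and 0 without tag 2 (13 of 708). Between Tcf7-Pdcd1 and Tcf7-only cells, 0 were called, beside 1 of 973 genes. Other settings called 6 with DESeq2 (47 of 973), 2 without the filter (23 of 2124) and 2 on thinned reads (16 of 449). There was 1 on cells with a read (9 of 376) and 1 with states set from 2 or more reads (16 of 933). With 1 cell per clone it was 2 (13 of 552). With 1 mouse left out it was 1 without anti-CD4 (7 of 1036), 0 without tag 1 (1 of 1028) and 0 without tag 2 (1 of 708). Between Pdcd1-Havcr2 and Tcf7-Pdcd1 cells, 0 were called, beside 26 of 973 genes. It was 1 with DESeq2 size factors (32 of 973), 4 with DESeq2 (95 of 973) and 2 with 1 cell per clone (39 of 552). With clone size, 2 were called, beside 69 of 800 genes. It was 1 with DESeq2 size factors (62 of 800), 4 with DESeq2 (281 of 800) and 3 without the filter (70 of 2124). It was 7 on thinned reads (180 of 522) and 7 on cells with a read (198 of 434). With 1 mouse left out it was 0 without anti-CD4 (0 of 1160), 0 without tag 1 (3 of 1112) and 0 without tag 2 (0 of 776). With no replicate block it was 0 (0 of 800), and without the largest clones 4 (112 of 803). Without cells with markers of other types it was 1 (102 of 730), and without myeloid reads 1 (70 of 790). With 1 cell per clone it was 1 (60 of 490). Within Pdcd1-Havcr2 cells it was 0 (0 of 333), and within Tcf7-only cells 2, Il4ra and Il2rb (20 of 506). Between cells without and with a beta chain, 0 were called, beside 0 of 1137 genes. It was 5 with DESeq2 (82 of 1137), 1 without the filter (13 of 2124) and 2 on thinned reads (12 of 664). With 1 mouse left out it was 1 without tag 1 (11 of 1456), 0 without anti-CD4 (0 of 1229) and 0 without tag 2 (0 of 1146).

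Signs turned only for members that the main comparisons had not called. Between Pdcd1-Havcr2 and Tcf7-only cells, leaving out 1 mouse gave log2 differences of -0.33 to 0.57 for Il12rb2, -0.30 to 0.47 for Il15ra, -0.0593 to 0.19 for Il18r1 and -0.066 to 0.47 for Il18rap, and each was negative without the tag 2 mouse (-0.044 for Il18r1). It was -0.15 for Il18r1 on thinned reads, -0.0912 for Il15ra and -0.13 for Il18r1 without cells with markers of other types, -0.0619 for Il15ra and -0.15 for Il18r1 with states set from 2 or more reads, and -0.16 for Il2rb with 1 cell per clone. With clone size in Pdcd1-Havcr2 cells it was -0.0023 for Il12rb1, -0.13 for Il15ra, -0.30 for Il18rap and 0.11 for Il2rb. In Tcf7-only cells it was -0.31 for Il3ra, with 1 cell per clone -0.33 for Il18r1, and with 1 mouse left out -0.52 (without tag 2) to 2.45 for Il1rl1. Il2rb, at -0.05, was at 0.16 without the filter, 0.0649 on cells with a read, 0.0165 with no replicate block and -0.18 to 0.0915 with 1 mouse left out. Within Tcf7-only cells Il2rb was called lower in large clones (edgeR adjusted p = 0.0333), beside 20 of 506 genes called. Without cells with markers of other types, Il1b was at -0.50 between cells without and with a beta chain.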
